A study of Mus musculus with 8 samples.

Results

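Receptors for glutamate, GABA and glycine were read in the hypothalamus of mice without functional peroxisomes in neural cells and of wild type mice. The rule that picks the genes reads their annotated symbol and no measured value, and it found 44 of the 18194 genes that had a probe set of their own on the array. Of these, 43 are receptor subunits: 4 AMPA, 5 kainate, 6 NMDA and 1 delta subunit of the ionotropic glutamate receptors, 6 metabotropic glutamate receptors, 13 GABA-A subunits, 2 GABA-A rho subunits, 1 GABA-B subunit and 5 glycine receptor subunits. The remaining gene, *Grid2ip*, carries the prefix of the delta receptors but encodes a protein that binds them. It was kept in the counts over 44 genes and had a log2 difference of −0.06 (adjusted p = 0.834). Other genes of these families were not analysed here.

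Glutamate is the main excitatory transmitter of the brain. AMPA, kainate and NMDA receptors are cation channels that it opens directly, whereas metabotropic glutamate receptors act through G proteins, some of them on the nerve terminal as brakes on transmitter release. GABA is the main inhibitory transmitter and is used by a large share of hypothalamic neurons. It opens the chloride channels of GABA-A receptors, which are assembled from mixed alpha, beta and gamma or delta subunits, and it acts more slowly through GABA-B receptors and their G proteins. Glycine receptors are chloride channels best known from spinal cord and brain stem. The subunit mix sets where a receptor sits, how long it conducts and which drugs bind it.

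Hypothalami of 4 wild type mice and 4 *Nestin-Pex5*-/- mice were profiled, each mouse on its own Affymetrix whole-genome array, and the labels describe the mice as biological replicates. *Pex5* encodes the receptor that brings matrix proteins into peroxisomes, and in *Nestin-Pex5*-/- mice the gene is deleted by Cre under the Nestin promoter, which is active in the progenitors of neurons, astrocytes and oligodendrocytes but not in those of microglia. All mice were 10 weeks old and untreated, were kept under normal conditions and, per the methods, were bred into a Swiss Webster background. Sex, and whether the wild type mice carried loxP or Cre alleles, are not given in the sources used here. The comparison asks which transcripts differ in this tissue when neural cells lack peroxisomes. Values are log2 signals after robust multi-array averaging (RMA), so a difference of 1 is a 2-fold change. They compare arrays for 1 probe set and do not rank genes by amount.

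*Pex5* itself read 8.62, 8.68, 8.63 and 8.70 in wild type replicates 1 to 4 and 8.76, 8.68, 8.58 and 8.66 in *Nestin-Pex5*-/- replicates 7 to 10 (log2 signal). It differed by 0.01 (adjusted p = 0.946). Where its probe set lies relative to the deleted part is not known, so this value does not check the genotypes. Over all genes the first principal component (49.3% of the variance) separated the genotypes. The second (18.7%) set wild type replicate 4 apart from the other 7 arrays, and the third (12.8%) divided *Nestin-Pex5*-/- replicates 7 and 8 from 9 and 10. Where leaving out these arrays changed a call of a receptor gene, both values are given. Moves of a value without a change of call are given for some genes only.

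Of the 44 receptor genes 1 passed the threshold. No member was called higher and 1 was called lower in *Nestin-Pex5*-/- hypothalamus by limma at an adjusted p under 0.05, 2.27% of the 44, while 3.98% of all genes were called higher and 0.791% lower. The called gene was *Gabrg3*, the GABA-A receptor gamma3 subunit. The log2 differences ran from −0.47 (*Gabrg3*) to 0.13 (*Gabrd*), which is 0.720-fold to 1.09-fold, with a median of −0.07 against −0.03 over all genes. Of the 44 differences 35 lay below 0 (79.5%), as did 61.7% of those of all genes. This count reads the brightest probe set of each gene. Of the 27 members with several probe sets, only 16 had all of them on the same side of 0. At an unadjusted p under 0.05, 5 members were lower and 0 higher, 11.4% of the list, against 8.01% lower and 8.85% higher among all genes. These were *Gabrg3*, *Gria1*, *Grm8*, *Grik3* and *Grm5*. In bulk tissue, fewer cells of a type and less RNA per cell cannot be told apart.

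How precise these differences are is limited by the number of arrays. Their standard errors ran from 0.06 (*Grm7*) to 0.22 (*Gria2*) with a median of 0.10 on the log2 scale. The 95% intervals of all 44 genes lay within a 2-fold change in either direction. For 39 genes the interval lay within 1.5-fold. The 5 intervals that reached beyond 1.5-fold did so on the lower side (*Gabre*, *Gabrg3*, *Gabrq*, *Gria2* and *Grm5*), and none did on the higher side. The lowest bound was 0.576-fold (*Gabre*) and the highest 1.35-fold (*Grin2a*).

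**Figure D1:**
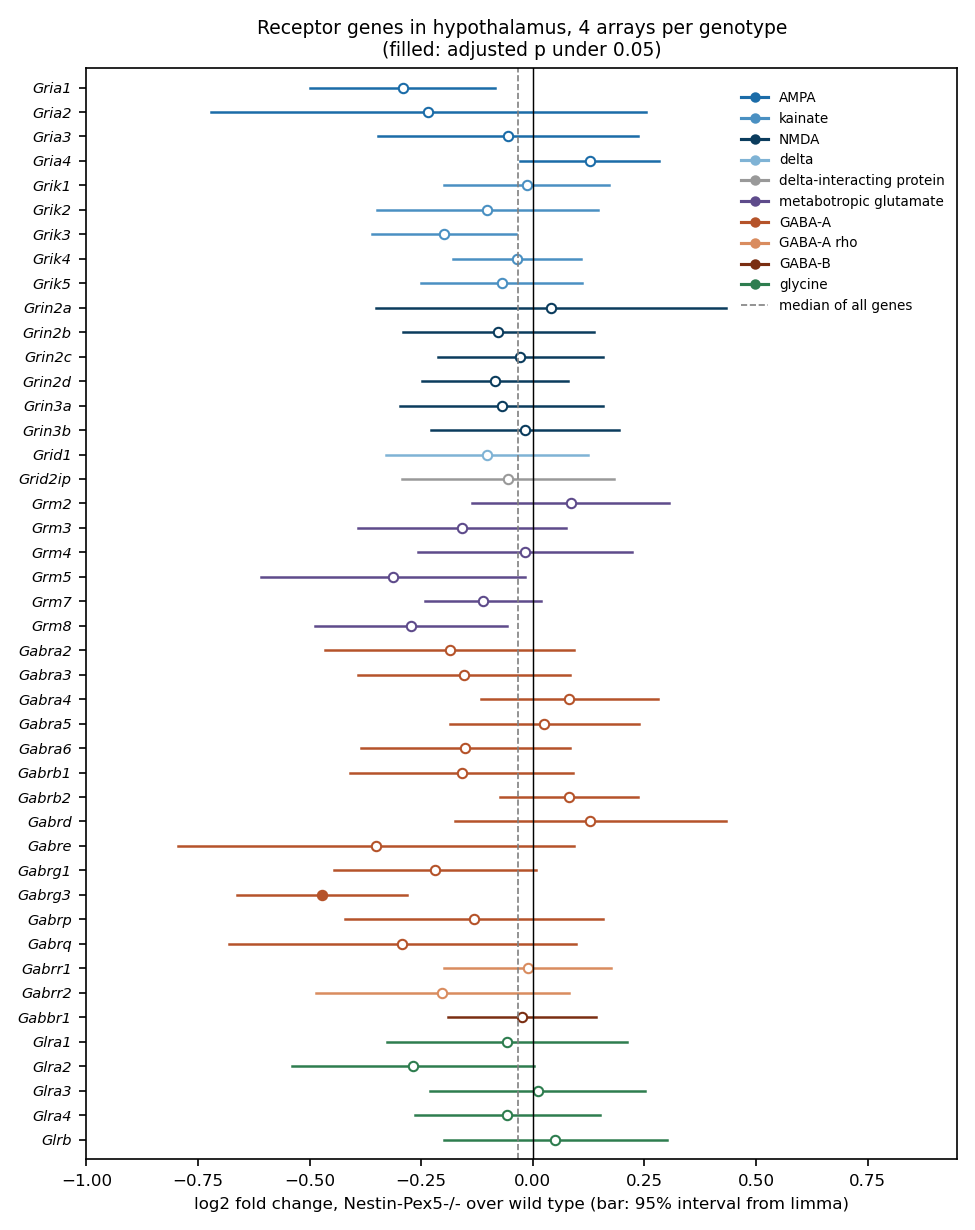
Log2 fold change of each receptor gene, *Nestin-Pex5*-/- over wild type (horizontal axis), with its 95% interval from limma, coloured by family, 4 arrays per genotype. *Gabrg3* (filled) at −0.47 was the only gene past the threshold, and most other points lie left of 0, where the median of all genes (dashed line, −0.03) lies as well.

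The count of called members depended on wild type replicate 4. Without that array 5 members were called lower, 11.4% of the list, with 1.82% of all genes called lower. They were *Grm5* (−0.46, adjusted p = 0.0013), *Gabrg3* (−0.53, adjusted p = 0.0034), *Gabra2* (−0.33, adjusted p = 0.0114), *Gria1* (−0.37, adjusted p = 0.0147) and *Gria2* (−0.48, adjusted p = 0.0164). When limma weighted the arrays by their fit, wild type replicate 4 received the smallest weight, 0.274, and 6 members were called lower, with 3.84% of all genes. Those 6 were *Gabra2*, *Gabrg1*, *Gabrg3*, *Gria1*, *Grm5* and *Grm8*. Scaled to *Actb*, 4 members were called lower (*Gabrg3*, *Gria1*, *Grik3* and *Grm8*), with 5.97% of all genes. That scaling moved the median of all genes to −0.16 and the median of the members to −0.20. Scaled instead to the mean of 23 neuron markers, the medians were 0.01 for all genes and −0.03 for the members, and 28 members lay below 0. Such a scaling moves the difference of every gene by the same amount, and the counts of members below 0 in each family move with it.

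*Gabrg3* was the member with the largest difference and the smallest p. Gamma subunits complete the GABA-A receptor and form part of its benzodiazepine site, and gamma3 is a less common form than gamma2. The brightest *Gabrg3* probe set read 8.32, 8.32, 8.16 and 8.03 in the wild type arrays and 7.90, 7.66, 7.71 and 7.67 in the *Nestin-Pex5*-/- arrays (log2 signal). Every wild type array was above every *Nestin-Pex5*-/- array. The means were 8.21 ± 0.14 and 7.73 ± 0.11 (SD, n = 4), a fall of *Gabrg3* to 0.720-fold with a 95% interval of 0.631 to 0.822 (log2 difference −0.47, SE 0.08, adjusted p = 0.0106). The exact permutation test gave p = 0.029, the smallest that 4 against 4 arrays allow. By its limma p the gene ranked 497 among all 18194. *Gabrg3* and *Grm7* were the 2 members whose arrays did not overlap between the genotypes, both with lower *Nestin-Pex5*-/- values, 4.55% of the list. Among all genes 4.51% separated in this way on the lower and 6.63% on the higher side.

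Further probe sets of *Gabrg3* pointed the same way with weaker statistics. In the fit over all single-gene probe sets the brightest differed by −0.47 (adjusted p = 0.0150). The other 3 differed by −0.40 (adjusted p = 0.111), −0.36 (adjusted p = 0.109) and −0.28 (adjusted p = 0.710). All 3 were dim, with mean signals of 6.11 to 6.70, under the median of 7.28 over all single-gene probe sets. The genotypes overlapped in those at −0.36 and −0.28. Another probe set, which also matches 6330406O05Rik, differed by −0.30 (adjusted p = 0.270). The probe set at −0.28 had the widest scatter, with wild type replicate 4 at 5.76 and the other wild type arrays at 6.57 to 6.99. *Gabrg3* was called lower in 17 of 19 alternative settings. The call was lost when the probe sets were averaged (−0.38, adjusted p = 0.150) and when *Nestin-Pex5*-/- replicates 9 and 10 were both left out (−0.43, adjusted p = 0.154).

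**Figure D2:**
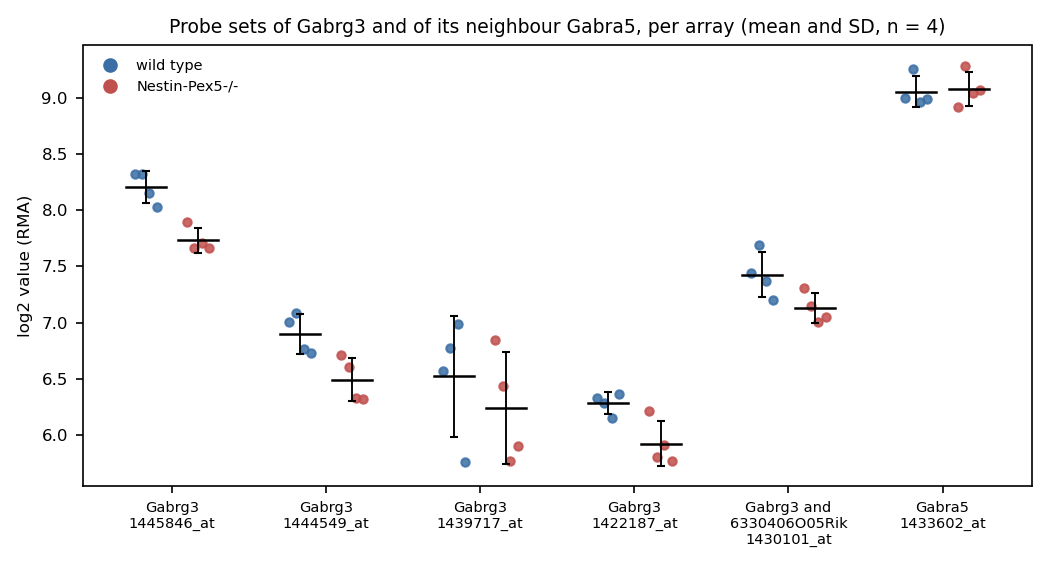
Log2 signal (vertical axis) of the *Gabrg3* probe sets, of the probe set it shares with 6330406O05Rik and of the neighbouring *Gabra5*, in 4 wild type and 4 *Nestin-Pex5*-/- arrays, with mean and SD. The brightest *Gabrg3* probe set fell from 8.21 to 7.73 without overlap, and *Gabra5* read 9.05 and 9.08.

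*Gabrg3* lies on chromosome 7 at 56716463 to 57387215 (RefSeq, GRCm38.p6), on the minus strand. GABA-A genes sit in clusters, and its upstream neighbour is *Gabra5*, the alpha5 subunit, at 57407669 to 57591016. *Gabra5* read 8.99, 9.26, 8.96 and 8.99 in wild type and 8.92, 9.28, 9.04 and 9.06 in *Nestin-Pex5*-/- arrays. These groups overlapped (log2 difference 0.03, adjusted p = 0.920). The signal of *Gabra5* minus that of *Gabrg3* was 0.676 to 0.960 in wild type and 1.02 to 1.62 in *Nestin-Pex5*-/- arrays. The genotype means of this value differed by 0.50 (exact permutation test, p = 0.029). *Gabrg3* was picked for its fall in these same arrays and *Gabra5* hardly differed. The p thus restates the separation of *Gabrg3* and is no separate evidence. Among the 12 pairs of clustered GABA-A genes tested in this way the adjusted p was 0.343. The p of 0.029 is the smallest possible here, so a single pair among 12 could not pass this correction whatever its size. The correction therefore cannot decide about this pair, which is described because *Gabrg3* carried the only call in the same arrays.

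The sequence upstream of both starts is given because *Gabrg3* carried the only call and *Gabra5* is its neighbour. RefSeq start regions were found for 33 of the 44 genes. Each line holds the 250 bases before the annotated start, 5′ to 3′ on the minus strand of GRCm38.p6, with CG dinucleotides in capitals (a CG reads the same on both strands). The *Gabrg3* stretch is chr7:57387216-57387465, and the *Gabra5* stretch, chr7:57510060-57510309, precedes a start inside the annotated span of that gene.
Gabrg3: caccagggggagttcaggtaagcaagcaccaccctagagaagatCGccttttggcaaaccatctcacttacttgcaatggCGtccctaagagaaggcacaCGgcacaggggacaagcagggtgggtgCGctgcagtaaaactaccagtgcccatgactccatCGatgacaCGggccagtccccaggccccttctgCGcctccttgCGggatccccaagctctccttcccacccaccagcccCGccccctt
Gabra5: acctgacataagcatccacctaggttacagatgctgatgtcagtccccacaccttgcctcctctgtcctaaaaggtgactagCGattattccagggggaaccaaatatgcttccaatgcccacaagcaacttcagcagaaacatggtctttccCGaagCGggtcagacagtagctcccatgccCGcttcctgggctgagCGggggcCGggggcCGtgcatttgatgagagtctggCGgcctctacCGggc
Each stretch holds 9 CG, and 40.3% of the 32851 start regions of this length in the table hold as many, with a median of 6. The GC content was 60.4% for *Gabrg3* and 56.4% for *Gabra5*, against a median of 52.4%. Neither holds TATAAA on either strand, which 12.4% of all start regions do.

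The other GABA-A subunits did not pass the threshold. Over the 13 GABA-A and 2 rho genes the median log2 difference was −0.15 and 11 lay below 0. *Gabrg1*, the gamma1 subunit, is expressed in the basal forebrain and hypothalamus. It read 10.44, 10.36, 10.42 and 10.10 in wild type and 10.35, 10.05, 10.05 and 9.99 in *Nestin-Pex5*-/- arrays. *Nestin-Pex5*-/- replicate 7 lay among the wild type values and wild type replicate 4 near the *Nestin-Pex5*-/- values (log2 difference −0.22, SE 0.10, adjusted p = 0.311). Without wild type replicate 4 the difference was −0.29 (adjusted p = 0.0878). *Gabre*, the epsilon subunit, is found mainly in hypothalamus and brain stem and gives receptors of low benzodiazepine sensitivity. It read 6.74, 7.04, 6.48 and 7.12 in wild type and 7.01, 6.51, 6.36 and 6.09 in *Nestin-Pex5*-/- arrays, with wide and overlapping spreads (−0.35, SE 0.20, adjusted p = 0.416). Over the alternative settings its difference ran from −0.62 to −0.09. *Gabrq*, the theta subunit encoded beside *Gabre* and *Gabra3* on the X chromosome, was chosen after its values were seen. Its difference was −0.29 (adjusted p = 0.440) and that of *Gabra3* −0.15 (adjusted p = 0.512).

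The cluster on chromosome 5 holds *Gabrg1*, *Gabra2*, *Gabra4* and *Gabrb1*. *Gabra2*, the alpha2 subunit, read 10.33, 10.42, 10.24 and 9.77 in wild type and 9.95, 10.04, 10.00 and 10.01 in *Nestin-Pex5*-/- arrays. Wild type replicates 1 to 3 were above and replicate 4 below every *Nestin-Pex5*-/- array, and the difference was −0.19 (adjusted p = 0.494). *Gabrb1* (−0.16, adjusted p = 0.517) and *Gabra4* (0.08, adjusted p = 0.682) lay on opposite sides of 0, although their annotated spans overlap. Their difference in response, 0.24, gave p = 0.114 (exact permutation test). Without wild type replicate 4, *Gabrb1* differed by −0.25 (adjusted p = 0.177). *Gabrb2*, a beta subunit of the most common GABA-A receptors, differed by 0.08 (adjusted p = 0.602), and its 5 probe sets differed by 0.00 to 0.08. *Gabrd*, the delta subunit of receptors outside the synapse, had 2 probe sets that disagreed in sign, 0.13 for the brighter and −0.13 for the dimmer. On the brighter, *Nestin-Pex5*-/- replicates 7 and 8 averaged 9.24 and replicates 9 and 10 averaged 8.74. These means lay on either side of the wild type mean of 8.86. The remaining *Gabra6* (−0.15), *Gabrp* (−0.13), *Gabrr1* (−0.01) and *Gabrr2* (−0.20) were dim, with mean signals of at most 5.58. The genes of this paragraph were named after their values were seen.

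*Gabbr1* encodes the subunit of the GABA-B receptor that binds GABA. It read 12.56, 12.66, 12.49 and 12.64 in wild type and 12.72, 12.59, 12.44 and 12.50 in *Nestin-Pex5*-/- arrays, with overlap (−0.02, SE 0.07, adjusted p = 0.901). Its sign turned under several settings, so no direction can be given. Of its 4 probe sets the largest difference was −0.20 (adjusted p = 0.172). On that probe set the genotypes did not overlap, at 11.31 to 11.49 in wild type and 11.125 to 11.28 in *Nestin-Pex5*-/- arrays. The other probe sets differed by −0.15 to 0.00, so the probe sets disagreed.

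The ionotropic glutamate receptor genes had a median log2 difference of −0.07, with 14 of 16 below 0 and none past the threshold. Among the AMPA subunits, which carry most fast excitation, *Gria1* had the largest difference. It read 11.33, 11.36, 11.27 and 11.00 in wild type and 10.80, 11.07, 11.01 and 10.92 in *Nestin-Pex5*-/- arrays. Wild type replicates 1 to 3 lay above all *Nestin-Pex5*-/- arrays and replicate 4 among them (−0.29, SE 0.09, adjusted p = 0.133). Its second probe set differed by −0.33 (adjusted p = 0.273). *Gria2*, the subunit that makes AMPA receptors impermeable to calcium, showed the widest scatter of all members and was chosen for that. It read 11.76, 11.73, 11.82 and 10.77 in wild type and 11.04, 11.26, 11.42 and 11.43 in *Nestin-Pex5*-/- arrays (−0.23, SE 0.22, adjusted p = 0.631). Its dimmer probe sets differed by −0.12 and 0.11, on opposite sides of 0.

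*Gria4* was on the other side of 0. Its wild type arrays read 10.17, 9.99, 10.08 and 9.86, and its *Nestin-Pex5*-/- arrays lay close together at 10.15, 10.15, 10.14 and 10.16 (0.13, SE 0.07, adjusted p = 0.402). Wild type replicate 1 lay above all of them. Scaled to *Actb* this difference was −0.000425, and its 2 dimmer probe sets differed by −0.02 and −0.03. *Gria3* differed by −0.06 (adjusted p = 0.866), and by −0.18 without wild type replicate 4 (adjusted p = 0.291).

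All 5 kainate receptor genes lay below 0, of which *Grik1* and *Grik4* turned above it when scaled to the neuron markers, with a median of −0.07 and none past the threshold. *Grik3*, a low affinity kainate subunit, read 9.02, 9.10, 9.26 and 9.24 in wild type and 9.04, 8.87, 8.92 and 8.98 in *Nestin-Pex5*-/- arrays, so that only wild type replicate 1 and *Nestin-Pex5*-/- replicate 7 overlapped (−0.20, SE 0.07, adjusted p = 0.188). The other kainate subunits differed by −0.10 (*Grik2*), −0.07 (*Grik5*), −0.03 (*Grik4*) and −0.01 (*Grik1*). Without wild type replicate 4, *Grik2* differed by −0.22 (adjusted p = 0.0846) and *Grik5* by −0.15 (adjusted p = 0.113). The 6 NMDA receptor genes, whose channels admit calcium and serve synaptic plasticity, ran from −0.08 to 0.04, with a median of −0.05. Without wild type replicate 4 they ran from −0.17 (*Grin2b*, adjusted p = 0.168) to 0.05 (*Grin3b*). The adjusted p was 0.606 for *Grin2d*, the NMDA subunit with the largest difference. The delta receptor gene *Grid1* differed by −0.10 (adjusted p = 0.655).

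The 6 metabotropic glutamate receptor genes had a median of −0.14 with 5 below 0. *Grm5* encodes a receptor of group I, which couples to phospholipase C and sits beside the synapse on the receiving cell. It read 10.62, 10.56, 10.67 and 10.01 in wild type and 10.07, 10.19, 10.17 and 10.18 in *Nestin-Pex5*-/- arrays. As with *Gria2*, wild type replicate 4 lay below every other array (−0.31, SE 0.13, adjusted p = 0.270). Its second probe set differed by −0.41 (adjusted p = 0.240). *Grm7* and *Grm8* encode group III receptors, which reduce release from the nerve terminal. *Grm8* read 7.46, 7.39, 7.24 and 7.46 in wild type and 7.30, 7.23, 6.90 and 7.04 in *Nestin-Pex5*-/- arrays, overlapping in wild type replicate 3 and *Nestin-Pex5*-/- replicate 7 (−0.27, SE 0.10, adjusted p = 0.176).

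*Grm7* read 9.92, 9.96, 9.92 and 10.01 in wild type and 9.91, 9.90, 9.75 and 9.80 in *Nestin-Pex5*-/- arrays. The lowest wild type array lay only just above the highest *Nestin-Pex5*-/- array, and the difference was −0.11 (SE 0.06, adjusted p = 0.371). Its 2 dimmer probe sets differed by 0.05 and 0.02. *Grm3*, a group II receptor also found on astrocytes, differed by −0.16 (adjusted p = 0.486). The group II receptor *Grm2* differed by 0.08 (adjusted p = 0.704), and the group III receptor *Grm4* by −0.02 (adjusted p = 0.951). Without wild type replicate 4, *Grm3* differed by −0.26 (adjusted p = 0.0621) and *Grm4* by 0.08 (adjusted p = 0.661).

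Of the 5 glycine receptor genes none passed the threshold, and the median was −0.06. *Glra2*, the alpha2 subunit typical of the developing brain, read 9.47, 9.33, 9.12 and 9.44 in wild type and 9.37, 9.14, 8.89 and 8.88 in *Nestin-Pex5*-/- arrays. *Nestin-Pex5*-/- replicates 9 and 10 lay below every wild type array, and replicates 7 and 8 among them (−0.27, SE 0.12, adjusted p = 0.301). Over the alternative settings the difference of *Glra2* ran from −0.45 to −0.09. *Glra4* read 4.46, 4.64, 4.46 and 4.77 in wild type and 4.46, 4.37, 4.61 and 4.66 in *Nestin-Pex5*-/- arrays (−0.06, adjusted p = 0.799). *Glra1*, the adult spinal alpha subunit, read 7.90, 7.997, 8.10 and 8.45 in wild type and 8.09, 8.19, 7.85 and 8.08 in *Nestin-Pex5*-/- arrays (−0.06, adjusted p = 0.849). The genotypes overlapped in both. *Glrb*, the beta subunit that anchors the receptor to gephyrin, differed by 0.05, and by −0.03 on its dimmer probe set. *Glra3* differed by 0.01, and by −0.11 without wild type replicate 4 (adjusted p = 0.351), so it has no settled direction. Without that array the signs of *Glra1* (0.05) and *Glra4* (0.0044) turned as well.

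**Figure D3:**
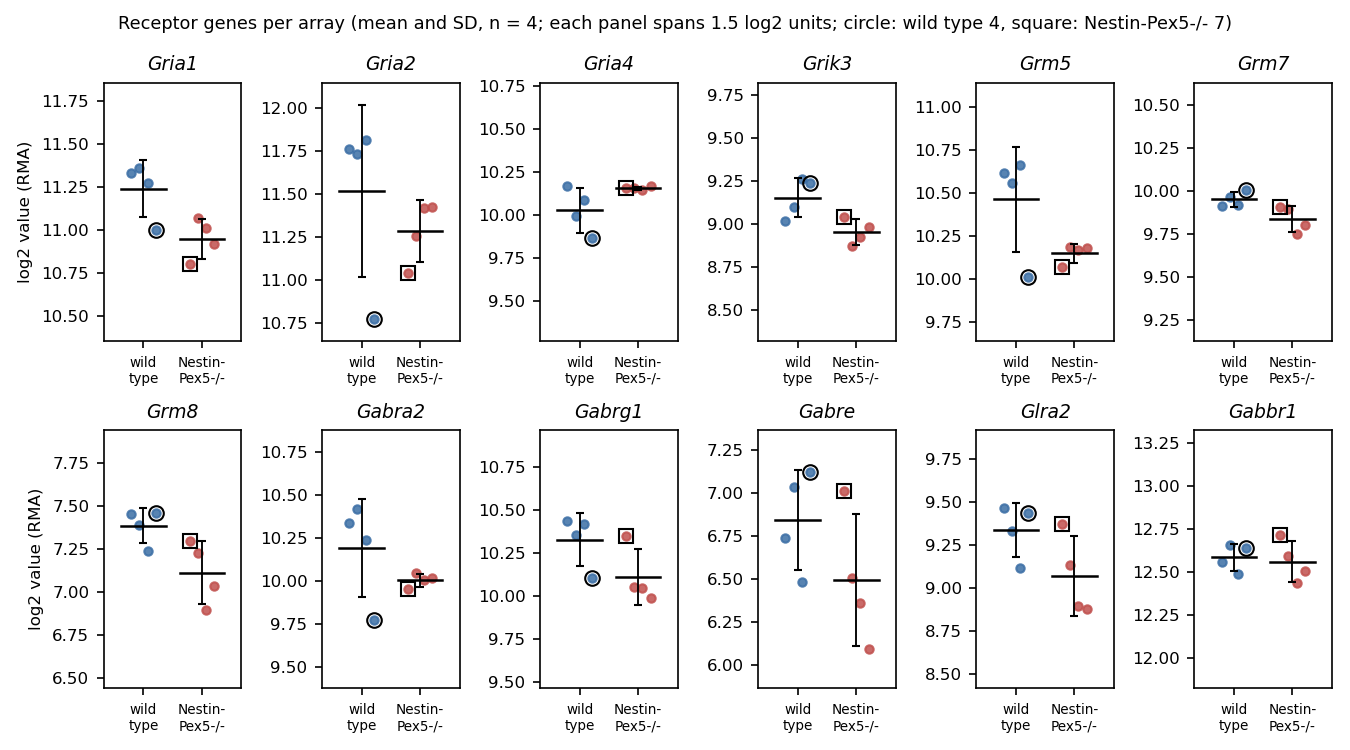
Log2 signal (vertical axis, each panel spanning 1.5 units) of 12 receptor genes in 4 wild type and 4 *Nestin-Pex5*-/- arrays, with mean and SD. The circled wild type replicate 4 lies far below the other wild type arrays for *Gria2*, *Grm5* and *Gabra2*, and the boxed *Nestin-Pex5*-/- replicate 7 is the highest of its group for *Gabre*, *Gabrg1* and *Glra2*.

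The spread within each genotype had its own pattern over the receptor genes. Wild type replicate 4 was the lowest wild type array for 17 of the 44 genes and the highest for 19. Over all genes it was the lowest for 19.4% and the highest for 52.2%. It lay over 0.3 below the mean of wild type replicates 1 to 3 for 11 members, among them all AMPA subunits but *Gria4*, and *Grm5*, *Grm3*, *Gabra2*, *Gabrb1*, *Grik2*, *Grik5*, *Grin2b* and *Glra3*. This was so for 6.56% of all genes. Of the 11 members whose mean level lay under the median of all single-gene probe sets, 7.28, it was the highest for 9. With replicate 4 set aside, the other 3 wild type arrays lay above every *Nestin-Pex5*-/- array for 12 members (27.3%) and below for 0, while 8.67% of all genes had the first pattern. The 12 were *Gria1*, *Gria2*, *Grik2*, *Grik5*, *Grin2b*, *Grm3*, *Grm5*, *Grm7*, *Gabra2*, *Gabrg1*, *Gabrg3* and *Glra3*. In all of these but *Grm7*, replicate 4 was the lowest wild type array. Setting aside a low array can only add to such a count, so its share is not a separate result about the genotype.

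Several measures of wild type replicate 4 were at hand. Its mean over 9 cortex markers was 7.25, like that of *Nestin-Pex5*-/- replicate 7 at 7.16, while the other 6 arrays ranged from 7.82 to 8.29. *Neurod6* had the widest scatter of these markers, with an SD of 1.88 in wild type and 2.23 in *Nestin-Pex5*-/- arrays. *Slc17a7* was low in wild type replicate 4 and *Nestin-Pex5*-/- replicate 7 (8.07 and 7.99), but *Cux2* was not (9.15 and 9.20). The mean of wild type replicate 4 over 8 striatal projection neuron markers was 8.76, against 9.27 to 10.72 in wild type replicates 1 to 3 and 8.36 to 8.89 in *Nestin-Pex5*-/- arrays. Its oligodendrocyte markers averaged 11.76, against 11.01 to 11.25 in replicates 1 to 3. The signal of the 3′ minus that of the 5′ control probe set, a measure of RNA integrity, was −0.350 for *Gapdh* in replicate 4, inside the range of the other arrays (−0.386 to −0.297), and 0.638 for *Actb*, inside 0.574 to 0.656. Their part in the receptor values was not tested.

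Among the *Nestin-Pex5*-/- arrays, replicates 7 and 8 both lay above 9 and 10 for 19 members and below them for 10. The first pattern held for 30.9% of all genes, and the share of all genes with the second was not computed. The gap between the means of these pairs was largest for *Gabrq* (0.55), *Gabre* (0.53) and *Gabrd* (0.50). The means of 9 meningeal fibroblast markers were 7.96 and 8.22 in replicates 7 and 8 and 9.16 and 9.11 in replicates 9 and 10, and those of 19 hypothalamic neuron markers were 9.14 and 8.83 against 8.61 and 8.63. The part of these markers in the receptor values was not tested. For *Gabrg3* the pairs were close, at 7.78 and 7.69.

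**Figure D4:**
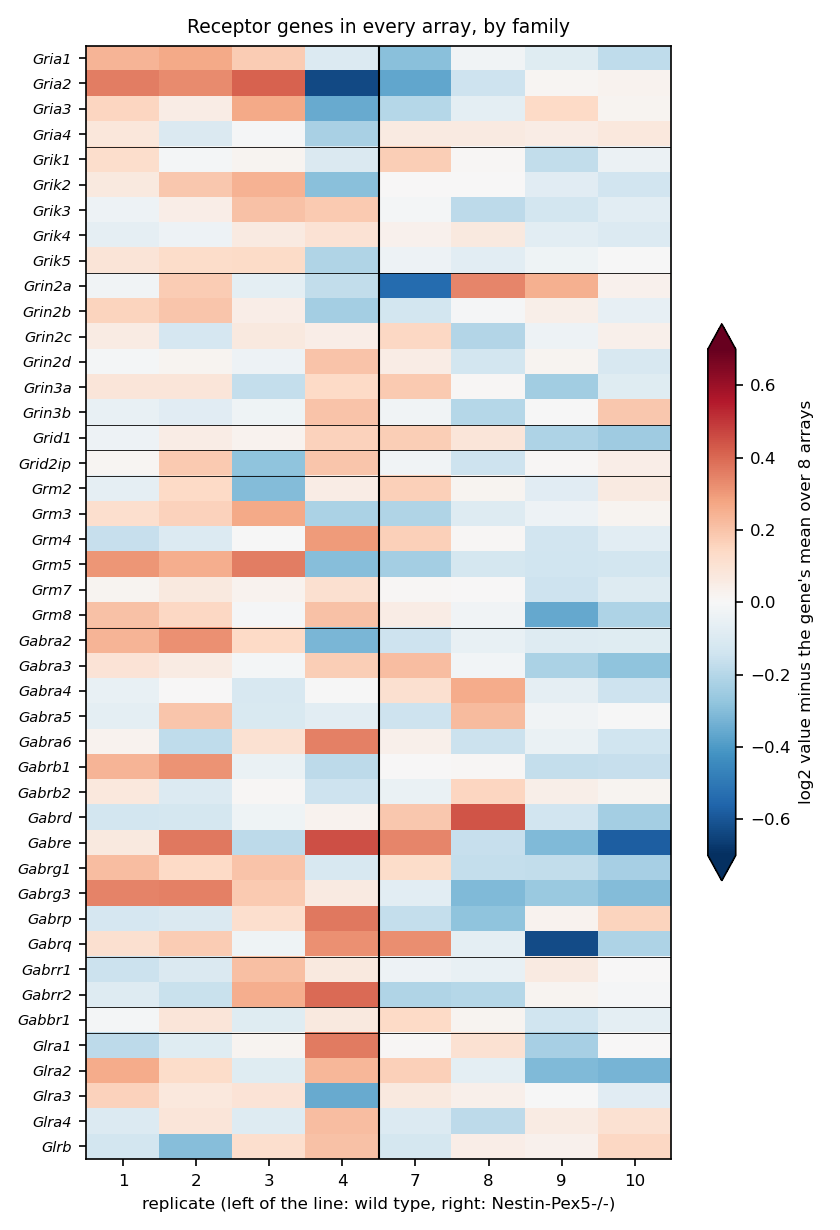
Each receptor gene (rows, by family) in every array (columns, wild type 1 to 4 left of the line, *Nestin-Pex5*-/- 7 to 10 right of it), coloured by its log2 signal minus the mean of that gene over the 8 arrays. Wild type replicate 4 is blue where replicates 1 to 3 are red for *Gria2*, *Grm5*, *Gabra2* and *Grik2*, and red for *Gabrr2*, *Gabrp* and *Glra1*.

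Genes that make, move and anchor the transmitters and receptors were read beside them. Of 27 measured genes for transport and metabolism of glutamate, GABA and glycine, 1 was lower and 0 were higher, with a median of −0.09. This count was not stable. It was 5 with array weights, 4 when dim genes were left out, with trend and robust eBayes or scaled to *Actb*, 3 without wild type replicate 4, with the values quantile-normalized again or with the mean of the probe sets, and 0 without wild type replicate 1, *Nestin-Pex5*-/- replicate 8 or replicate 9. Of all genes 0.791% were lower in the reported analysis, 3.84% with array weights, 5.97% scaled to *Actb* and 1.82% without wild type replicate 4. In the other settings just named this share was 0.275% to 1.14%. The gene called lower in the reported analysis was *Slc32a1*, the transporter that loads GABA and glycine into vesicles. It read 10.50, 10.30, 10.52 and 10.17 in wild type and 10.03, 9.85, 9.86 and 9.64 in *Nestin-Pex5*-/- arrays, without overlap. The fall was to 0.694-fold (−0.53, SE 0.10, adjusted p = 0.0164), and the exact permutation test gave p = 0.029. Its other 3 probe sets, all dim, differed by −0.06 to −0.02. The call for *Slc32a1* held in 14 of 19 alternative settings. It was lost with the mean of the probe sets (−0.16, adjusted p = 0.257), without wild type replicate 1 (adjusted p = 0.0553) and without *Nestin-Pex5*-/- replicate 8 (adjusted p = 0.0527) or 9 (adjusted p = 0.05004), as well as without replicates 9 and 10 together (adjusted p = 0.169).

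Further genes of this list are named after their values were seen. *Gad1* and *Gad2*, the enzymes that make GABA, both differed by −0.38 (adjusted p = 0.0532 and 0.0578), and *Aldh5a1*, which completes the breakdown of GABA, by −0.22 (adjusted p = 0.0535). For each of the 3, all wild type arrays lay above all *Nestin-Pex5*-/- arrays, as for 4.51% of all genes. Of other genes that handle GABA, *Abat*, which begins its breakdown, differed by −0.13 (adjusted p = 0.435) and *Slc6a11*, which takes it up, by −0.37 (adjusted p = 0.197), both with overlap. *Slc17a6*, the main vesicular glutamate transporter of hypothalamic neurons, differed by 0.02 (adjusted p = 0.900), and *Slc17a7*, that of the cortex, by 0.53 (adjusted p = 0.346). The difference between these groups of genes was not tested.

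No auxiliary receptor subunit passed the threshold among 30 measured, whose median was −0.07. In the alternative settings 0 to 5 of them were lower, 5 scaled to *Actb*, 3 with array weights and 3 without wild type replicate 4, and 0 were higher. Of all genes 5.97%, 3.84% and 1.82% were lower in these settings, in the same order. The smallest p belonged to *Cacng8*, an AMPA receptor partner (−0.30, adjusted p = 0.0752), and to *Kctd8*, a GABA-B receptor partner (−0.37, adjusted p = 0.118). Of 38 postsynaptic scaffold and trafficking genes none passed either, with a median of −0.06. Without wild type replicate 4, 4 of these were lower, and 3 were so with array weights or scaled to *Actb*, while the largest count of higher genes was 1. The shares of all genes called lower in these settings are those given above. *Lin7b*, a scaffold protein, differed by −0.22 (adjusted p = 0.0961) and *Gabarap*, which binds GABA-A receptor gamma subunits, by 0.16 (adjusted p = 0.125).

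Markers of cell types set the receptor values in context. Of 23 pan-neuronal markers 0 were called in either direction, with a median of −0.04, and their mean level was 12.07 to 12.11 in wild type and 12.01 to 12.08 in *Nestin-Pex5*-/- arrays. *Celf4* (−0.28, adjusted p = 0.0671) and *Nefh* (0.32, adjusted p = 0.167) had the smallest p. Of 19 hypothalamic neuron markers 1 was lower, *Nkx2-1*, a regulator of hypothalamic identity (−0.32, adjusted p = 0.0370). The median of this list was −0.22, with levels of 8.79 to 9.12 in wild type and 8.61 to 9.14 in *Nestin-Pex5*-/- arrays. Of these 19 markers 18 lay below 0, and the largest difference was that of *Oxt*, the hormone oxytocin (−0.42, adjusted p = 0.334). Named after their values were seen, *Pmch*, *Hcrt*, *Avp* and *Oxt*, peptides made by hypothalamic neurons, had mean signals from 10.6 to 12.6 in both genotypes. Other markers of this list were dim, with wild type means of 6.36 for *Nkx2-1* and 6.24 for *Nr5a1*. Such levels do not check how the tissue was dissected, because the values do not rank genes by amount. Striatal projection neuron markers, of cells in a neighbouring region, had 0 of 8 called and a median of −0.91. All 8 lay below 0, led by *Gpr6* (−1.69, adjusted p = 0.101) and *Tac1* (−0.61, adjusted p = 0.104). Wild type replicate 3 had the highest mean over these markers, 10.72, against 9.27, 9.50 and 8.76 in replicates 1, 2 and 4. The *Nestin-Pex5*-/- arrays had means of 8.36 to 8.89, so the size of the fall leans on that wild type array. These markers were not compared without it. The part of the striatal markers in the receptor differences was not tested.

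Of 19 microglia and macrophage markers 18 were higher and 0 lower, with a median of 2.27, from a mean level of 8.07 to 8.33 in wild type to 10.37 to 10.67 in *Nestin-Pex5*-/- arrays. *Ptprc*, *C1qb*, *C1qc* and *Adgre1* rose by 7.99-fold to 10.7-fold. Of 15 astrocyte markers 3 were higher, *Gfap* (6.76-fold), *Aqp4* (2.15-fold) and *Sox9* (1.41-fold), and 0 lower. The median of that list was 0.08 with 7 of 15 below 0, and 3 were lower at an unadjusted p under 0.05, *Slco1c1* (−0.32), *Fgfr3* (−0.23) and *Ntsr2* (−0.16), named after their values were seen. Oligodendrocyte markers had 0 of 11 called and a median of 0.40, with levels of 11.01 to 11.76 in wild type and 11.45 to 11.95 in *Nestin-Pex5*-/- arrays, and *Opalin* (0.88, adjusted p = 0.0758) and *Cnp* (0.45, adjusted p = 0.0990) had the smallest p. Of 8 oligodendrocyte precursor markers 1 was higher, *Gpr17* (1.92-fold, adjusted p = 0.0219). No call was made among 10 thalamus (median 0.14), 9 cortex (0.13), 9 meningeal (−0.28) or 9 endothelial markers (0.03). The part of these glial markers in the receptor signals was not tested.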

How the data were processed

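Hypothalamus RNA of 4 wild type and 4 *Nestin-Pex5*-/- mice was hybridised to 1 array each. The deposited values are log2 signals that the authors made with RMA, a method that subtracts background, brings all arrays to the same distribution and combines probes into probe sets. Its version, the definition of the probe sets and any filter are not given in the sources used here. Values ran from 2.91 to 15.03 and array medians from 6.70 to 6.84.

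Gene names came from the platform annotation of the probe sets. Of 45101, 34958 had 1 gene, 932 several and 9211 none, and the symbols of 34754 were updated through RefSeq. Each of 18194 genes was read from its brightest single-gene probe set, with no filter. Genes below background cannot be told from these values. Differences between genotypes were tested by lmFit and eBayes of limma 3.58.1 (R 4.3.3, two-sided), with Benjamini-Hochberg adjustment over all genes and a threshold of 0.05. The fit was checked on simulated data. Single genes were also compared by an exact two-sided permutation test over the 70 assignments of arrays, whose smallest p is 0.029. Related gene lists and cell type markers are described by counts and medians without a test. Replicate numbers are not shared between genotypes, so nothing was paired. Figures were drawn with matplotlib 3.10.9.

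The receptor genes were taken up as a group, and the lists were chosen, with earlier results of these data known, although the symbol rule itself uses no measured value. Named were every member past the threshold, the 3 members with the smallest p in each of 5 receptor groups, members without overlap and a log2 difference of at least 0.3, and from each list up to 4 genes past the threshold or up to 2 with the smallest p. The other members are given by their difference to account for the whole group, and list genes on which no result turned were left unnamed. Alternatives changed the probe set choice, the scaling, the normalization, the variance model, the array weights or the arrays used.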

Additional observations from a re-analysis of the deposited data

Results flagged for a closer look

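In groups of 4 arrays, the gap between the highest or lowest array and the next was divided by the range of all 4. This ratio was held against Dixon's criterion at the 95% level, which chance passes in about 1 of 20 groups. Of 118 groups tested 9 passed, and of the 88 groups of receptor genes 7 did.

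Wild type replicate 4 stood apart from the other wild type arrays in 4 receptor genes. It read 10.77 for *Gria2*, where the others read 11.73 to 11.82, and 10.01 for *Grm5*, where they read 10.56 to 10.67. It read 8.92 for *Grik5* against 9.22 to 9.26, and 5.73 for *Grin3b* against 5.45 to 5.50. Its mean over the oligodendrocyte precursor markers was 9.58 against 9.32 to 9.36.

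Wild type replicate 2 read 7.66 for *Grin2c* against 7.83 to 7.85 in wild type replicates 1, 3 and 4, and 9.26 for *Gabra5* against 8.96 to 8.99. *Nestin-Pex5*-/- replicate 7 read 10.07 for *Grm5* against 10.17 to 10.19 in the other *Nestin-Pex5*-/- arrays. The mean over the hypothalamic neuron markers was 8.79 in wild type replicate 3 against 9.09 to 9.12 in replicates 1, 2 and 4.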

How the results depend on the processing

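No member was called higher in any of the 19 alternative settings. The count of members called lower, 1 in the reported analysis, was 0 with the mean of a gene's probe sets and 0 without *Nestin-Pex5*-/- replicates 9 and 10, 4 when scaled to *Actb*, 6 with array weights, and 1 to 5 when each array was left out in turn, with 5 without wild type replicate 4. The median log2 difference of the members, −0.07, was −0.20 when scaled to *Actb* and −0.031 when scaled to the neuron markers. Signs turned only for differences that were not called. *Gria4* was −0.000425 when scaled to *Actb*. *Gabbr1* was 0.0098 scaled to the reference genes, 0.019 scaled to the neuron markers, 0.068 without *Nestin-Pex5*-/- replicates 9 and 10, and −0.075 to 0.018 when each array was left out. *Glra4* was 0.030 with array weights, 0.053 without *Nestin-Pex5*-/- replicates 7 and 8, and −0.10 to 0.0044 when each array was left out. *Glra1* was 0.028 without *Nestin-Pex5*-/- replicates 9 and 10 and −0.13 to 0.054 when each array was left out. The causes were not tested, except that leaving out arrays lowers the number compared. Leaving out genes below the median level kept 33 members and gave no value for *Gabre*, *Grm8* and *Glra4*. The probe sets carry no measure of signal over background, so small differences of dim genes are least certain. No paired analysis was possible because the genotypes share no replicate number.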
